A study of Mus musculus with 2 samples.

Results

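A set of 10 genes of natural killer (NK) cells and cytotoxic lymphocytes was followed in whole omentum by RNA-seq, with 1 library per genotype, WT and Postn-DTR. They were chosen by gene symbol and are 10 of the 24346 genes listed in each library: the receptor genes Ncr1, Klrb1c, Klrk1 and Klrd1, the granule genes Gzma, Gzmb, Prf1 and Nkg7, and the T-box transcription factor genes Eomes and Tbx21. The omentum is a fold of abdominal fat that holds milky spots, which are clusters of lymphocytes, macrophages and stromal cells. Mice of both genotypes received diphtheria toxin (DT), and tissue was taken 5 days later, so the control also carries the toxin treatment. Postn-DTR mice were heterozygous for a mutated human HB-EGF, the DT receptor, placed in the Postn gene, and the study used them to remove Aldh1a2+ fibroblastic reticular cells. Postn is also active in mesenchymal cells outside the omentum, and the sources used here do not say whether a library holds 1 mouse or a pool. Postn, the targeted locus, was listed at 58.3 FPKM for WT and 16.2 FPKM for Postn-DTR. FPKM is the number of sequenced fragments scaled to the length of the transcript and to the depth of the library, so levels of different genes can be set side by side.

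NK cells are innate lymphocytes that read activating and inhibitory receptors on their surface and kill target cells without prior priming. NK cells and CD8 T cells kill by the same route, in which granules are released onto the target, perforin opens its membrane and granzymes enter and start cell death. The T-box factors T-bet (Tbx21) and Eomes drive the maturation of both cell types, and most of the granule genes followed here are active in both, so their RNA in whole tissue does not name its cell of origin. Ncr1 and Klrb1c (NK1.1) are the members most restricted to NK cells and related innate lymphocytes. Klrb1c is not confined to them, since the study also used NK1.1, with Cd3e and NKG2D, to mark natural killer T cells.

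The FPKM values of all 10 genes were lower in Postn-DTR than in WT, by 1.13-fold for Gzmb to 2.99-fold for Eomes, and no member was higher. Of the 17969 genes listed above 0 in at least 1 library, 50.8% were lower by any amount. The share was 48.1% of the 13127 genes that averaged 1 FPKM or more over both libraries, and of the 8211 genes whose mean FPKM lay within the range of the members (0.848 to 16.8), 56.0% were. The change used to count genes is the log2(FPKM + 1) of Postn-DTR minus that of WT, and a gene is counted as lower or higher where it reaches 2-fold. On this scale 2 of the 9 members that averaged 1 FPKM or more, Klrd1 and Tbx21, were lower by 2-fold, 7 stayed within 2-fold and 0 were higher by 2-fold. Over all genes compared, 3.12% were lower and 3.88% were higher by 2-fold. At 1.5-fold 4 of the 9 members were lower, against 8.84% of all genes compared. The median change of the 9 members was -0.57, against 0.02 over all genes compared, whose 5th to 95th percentiles ran from -0.79 to 0.87. Eomes, with a mean of 0.848 FPKM, was left out of this count. In whole tissue, fewer cells of a type and less RNA per cell cannot be told apart. With 1 library per genotype there is no spread between replicates and no test between genotypes, and no difference below has a replicate check. The intervals given for FPKM ratios rest on reads estimated from the FPKM values and cover counting error only. That interval stayed under 1 for 7 members and reached 1 for 3, Klrb1c, Gzma and Gzmb. This count rests on the fewest reads, those of the shortest coding transcript, and longer transcripts would give more reads and narrower intervals.

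The FPKM values sum to 542190 in WT and 671882 in Postn-DTR, so the scaling of the libraries bears on every direction given here. Setting both libraries to equal totals without the pancreatic acinar genes, called equal totals from here on, shifted the median of all genes compared by -0.30, and the genes lower and higher by 2-fold went from 410 and 509 to 785 and 307. All 10 members were lower in either scaling, but at equal totals most of all genes compared were lower too. After the rescaling the median change of the members compared was -0.80, against -0.28 for all genes compared. Klrd1 and Tbx21 were still the 2 past 2-fold.

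**Figure D1:**
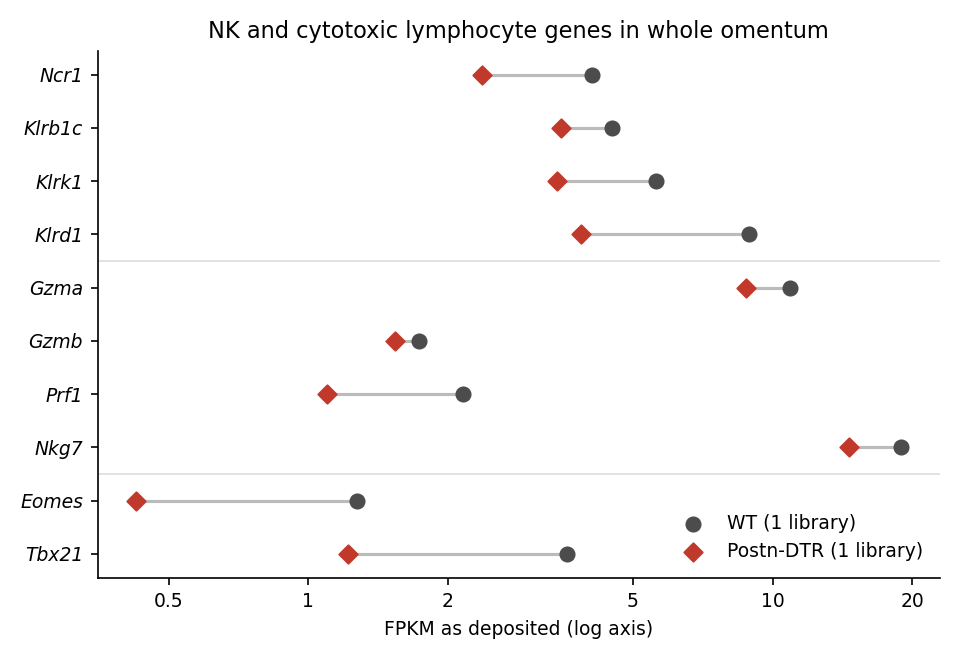
FPKM of the 10 genes in the WT library (circles) and the Postn-DTR library (diamonds), on a log axis, 1 library per genotype, ordered as receptors, granule genes and T-box factors. Each diamond lies to the left of its circle, with the widest gaps at Eomes (1.27 against 0.425 FPKM) and Tbx21 (3.62 against 1.22 FPKM) and the narrowest at Gzmb (1.73 against 1.54 FPKM).

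The start regions of 3 of the genes are shown by the 250 bases before the RefSeq start site, on GRCm38.p6 and on the strand of the gene. They are Tbx21, which encodes T-bet and had the lowest change of the members compared, Nkg7, the member with the highest FPKM, and Gzmb, the member that differed least. Capitals mark GGTGTGA, a core of the sequence that T-box factors bind.
Tbx21, chr11:97115332-97115581, minus strand: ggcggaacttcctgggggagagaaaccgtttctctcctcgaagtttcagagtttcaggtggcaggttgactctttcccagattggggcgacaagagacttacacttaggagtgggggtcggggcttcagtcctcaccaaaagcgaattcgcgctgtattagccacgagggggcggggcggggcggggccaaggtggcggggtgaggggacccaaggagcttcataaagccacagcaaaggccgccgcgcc
Nkg7, chr7:43436888-43437137, plus strand: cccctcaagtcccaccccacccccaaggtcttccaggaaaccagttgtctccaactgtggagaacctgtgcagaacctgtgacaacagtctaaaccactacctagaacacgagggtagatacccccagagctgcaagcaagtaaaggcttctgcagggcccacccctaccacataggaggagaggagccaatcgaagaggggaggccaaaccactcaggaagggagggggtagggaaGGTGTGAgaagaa
Gzmb, chr14:56262335-56262584, minus strand: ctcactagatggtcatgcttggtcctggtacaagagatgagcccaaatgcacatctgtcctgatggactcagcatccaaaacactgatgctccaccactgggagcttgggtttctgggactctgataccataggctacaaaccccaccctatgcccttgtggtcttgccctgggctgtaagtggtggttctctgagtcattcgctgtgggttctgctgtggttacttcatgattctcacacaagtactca
The motif was searched on both strands in windows of 300 bases, 250 before to 50 after each start, and 9 of the 10 members had such a window. Klrd1 had none. Of the 9 genes with a window, 1 held GGTGTGA, Nkg7, on the strand of the gene and beginning 13 bases before the RefSeq start. In GENCODE, Nkg7 starts earlier, at 43437073, so the match lies inside that gene. With the base before it, the Nkg7 match also reads AGGTGTGA. GGTGTGA was found for 4.60% of the 27025 genes with a window and AGGTGTGA, which contains it, for 1.48%. The windows of Tbx21, Eomes, Gzma, Gzmb, Prf1, Ncr1, Klrb1c and Klrk1 did not hold these letters, which says nothing about binding elsewhere.

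Among the receptors, Klrd1 stood lowest in Postn-DTR relative to WT. Klrd1 (CD94; ENSMUSG00000030165, chr6:129591782-129598775, plus strand, GRCm38) forms heterodimers with the NKG2 chains and reads non-classical MHC class I. It was listed at 8.92 FPKM for WT and 3.87 FPKM for Postn-DTR, 2.30-fold lower, with a ratio of 0.434 (95% interval 0.288 to 0.658, from at least 80 and 36 reads) and a change of -1.03. A lower change was seen for 2.93% of all genes compared. Its neighbour Klrk1 (NKG2D; ENSMUSG00000030149, chr6:129610323-129623864, minus strand) recognises stress-induced ligands and signals through the adaptor DAP10, encoded by Hcst. Klrk1 was at 5.60 FPKM for WT and 3.44 FPKM for Postn-DTR, a ratio of 0.614 (0.443 to 0.836). Klrb1c (ENSMUSG00000030325, chr6:128778485-128789215, minus strand), in the same gene complex, encodes NK1.1, an activating receptor by which NK cells are identified in some mouse strains. Klrb1c was at 4.51 FPKM for WT and 3.50 FPKM for Postn-DTR, a ratio of 0.777 whose interval, 0.493 to 1.27, includes 1. Its coding transcripts in the annotation differ in length, another gene model overlaps it on the same strand and close paralogs lie beside it, so the reads behind this value are uncertain. Ncr1 (NKp46; ENSMUSG00000062524, chr7:4337724-4345164, plus strand), an activating receptor of NK cells and some innate lymphoid cells, was at 4.08 FPKM for WT and 2.37 FPKM for Postn-DTR. The Ncr1 ratio was 0.580 (0.431 to 0.790), from about 120 and 72 reads. The 4 receptors summed to 23.1 FPKM for WT and 13.2 FPKM for Postn-DTR, a ratio of 0.570.

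The granule genes other than Prf1 had ratios nearer to 1 than the receptors Klrd1, Klrk1 and Ncr1, although the counting intervals of both groups overlap. This split was drawn after the values were seen. The receptor Klrb1c (0.777) and the granule gene Prf1 (0.509) went the other way. Prf1 (perforin; ENSMUSG00000037202, chr10:61297833-61304680, plus strand) encodes the protein that forms pores in the target membrane. It was at 2.15 FPKM for WT and 1.10 FPKM for Postn-DTR, a ratio of 0.509 (0.345 to 0.727, from at least 89 and 46 reads). Gzma (granzyme A; ENSMUSG00000023132, chr13:113093825-113100981, minus strand), a serine protease with tryptase-like activity, was at 10.9 FPKM for WT and 8.78 FPKM for Postn-DTR. Its ratio was 0.804 (0.640 to 1.01). Gzmb (granzyme B; ENSMUSG00000015437, chr14:56258838-56262260, minus strand), the protease that cleaves after aspartate and activates caspases, was at 1.73 FPKM for WT and 1.54 FPKM for Postn-DTR. Its ratio of 0.888 had an interval of 0.588 to 1.37, and 37.0% of all genes compared had a lower change. At about 50 and 46 estimated reads, the Gzmb interval includes both 1 and the Klrk1 ratio of 0.614. Nkg7 (ENSMUSG00000004612, chr7:43437073-43438249, plus strand), a membrane protein of cytotoxic granules needed for their release, was at 19.0 FPKM for WT and 14.6 FPKM for Postn-DTR, a ratio of 0.770 (0.626 to 0.946). The 4 granule genes summed to 33.8 FPKM for WT and 26.0 FPKM for Postn-DTR, a ratio of 0.770.

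Both T-box factors were lower by close to the same ratio. Tbx21 (T-bet; ENSMUSG00000001444, chr11:97098071-97115331, minus strand) was at 3.62 FPKM for WT and 1.22 FPKM for Postn-DTR, 2.97-fold lower, with a ratio of 0.337 (0.252 to 0.449, from about 193 and 67 reads) and a change of -1.06. A lower change was seen for 2.76% of all genes compared. Eomes (eomesodermin; ENSMUSG00000032446, chr9:118478212-118486132, plus strand) was at 1.27 FPKM for WT and 0.425 FPKM for Postn-DTR, a ratio of 0.335 (0.176 to 0.624). The Eomes values rest on as few as 43 and 15 reads, and an antisense gene overlaps it. Within a library, Tbx21 stood 2.85-fold above Eomes in WT and 2.87-fold above it in Postn-DTR. A ratio of FPKM at or under 0.5 was seen for 3 of the 10 members, Klrd1, Eomes and Tbx21, and for 7.17% of the genes in the same range of levels.

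**Figure D2:**
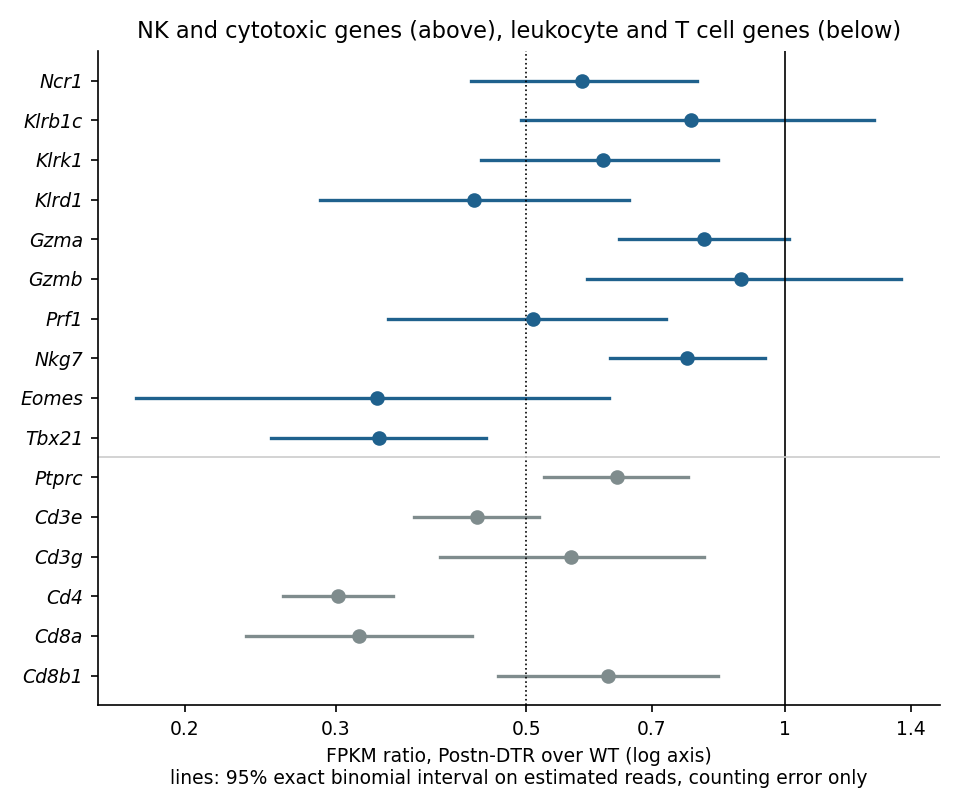
FPKM ratio of Postn-DTR over WT on a log axis for the 10 genes (blue) and for Ptprc, Cd3e, Cd3g, Cd4, Cd8a and Cd8b1 (grey), with lines for the 95% exact binomial interval of counting error. The solid line is a ratio of 1 and the dotted line 0.5. The intervals of Klrb1c, Gzma and Gzmb cross 1, and that of Tbx21 (0.252 to 0.449) lies wholly under 0.5.

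By FPKM, Nkg7 led in each, followed by Gzma and then Klrd1, and Eomes came last. Prf1 stood above Gzmb in WT, at 2.15 against 1.73 FPKM, and below it in Postn-DTR, at 1.10 against 1.54 FPKM. Tbx21 also stood above Gzmb in WT, at 3.62 against 1.73 FPKM, and below it in Postn-DTR, at 1.22 against 1.54 FPKM. Klrk1 stood above Klrb1c in WT and below it in Postn-DTR, where the values were 3.44 and 3.50 FPKM. No replicate spread stands behind these 3 crossings. The range from the highest to the lowest member was 14.9-fold in WT and 34.3-fold in Postn-DTR, where Eomes was lower and Nkg7 kept more of its level. The ratio of Gzma to Prf1 was 5.07 in WT and 7.99 in Postn-DTR, and that of Gzma to Gzmb was 6.30 and 5.71.

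**Figure D3:**
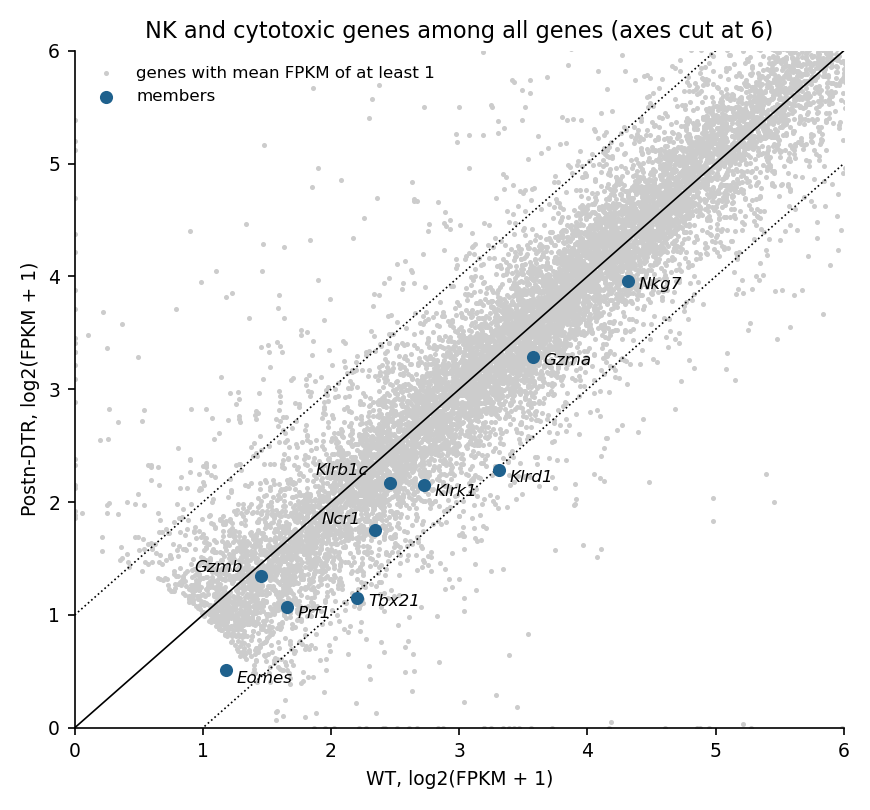
The log2(FPKM + 1) of each gene in WT (x axis) and Postn-DTR (y axis), with the 10 NK and cytotoxic genes in blue and all genes that averaged 1 FPKM or more in grey, both axes ending at 6. The solid line is equality and the dotted lines a 2-fold difference. All 10 named points lie under the solid line, and Klrd1 and Tbx21 lie at or just past the lower dotted line.

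The genes were next set against markers of leukocytes and T cells within each library, since a ratio of 2 genes of 1 library does not depend on how the libraries were scaled. Ptprc, which encodes CD45 and is expressed by all leukocytes, was at 55.6 FPKM for WT and 35.4 FPKM for Postn-DTR. Relative to Ptprc, 4 members (Klrb1c, Gzma, Gzmb and Nkg7) were higher in Postn-DTR and 6 were lower, with a median ratio of ratios of 0.936 and a range from 0.525 for Eomes to 1.39 for Gzmb. Relative to Cd3e, a chain of the T cell receptor complex that was at 15.6 FPKM for WT and 6.82 FPKM for Postn-DTR, 7 members were higher and 3, Klrd1, Eomes and Tbx21, were lower, with a median of 1.36. Klrd1, at 0.991, lay close to 1. The references themselves were not equal. Relative to Cd8a, the alpha chain of the CD8 co-receptor, which was at 2.81 and 0.897 FPKM, all 10 were higher, with a median of 1.87. Relative to Cd8b1, the beta chain, which was at 4.06 and 2.53 FPKM, 4 were higher and 6 lower, with a median of 0.960. Cd8b1, Cd3d and Cd3g were added as references after the values had been seen. With Cd3d 7 members were higher and 3 lower, and with Cd3g 6 were higher and 4 lower. Eomes and Tbx21 were lower relative to each of these references other than Cd8a, against which both stood at 1.05. Further T cell genes were not used as references and are named after their values were seen. Their FPKM ratios were 0.302 for Cd4, 0.316 for Cd5, 0.340 for Cd6, 0.413 for Lck and 0.542 for Lat. The ratios of Eomes (0.335) and Tbx21 (0.337) lay within that range, above Cd4 and Cd5 and below Cd6, Lck and Lat. The intervals of the Eomes ratio (0.176 to 0.624) and the Tbx21 ratio (0.252 to 0.449) both overlap that of the Cd3e ratio (0.369 to 0.517).

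**Figure D4:**
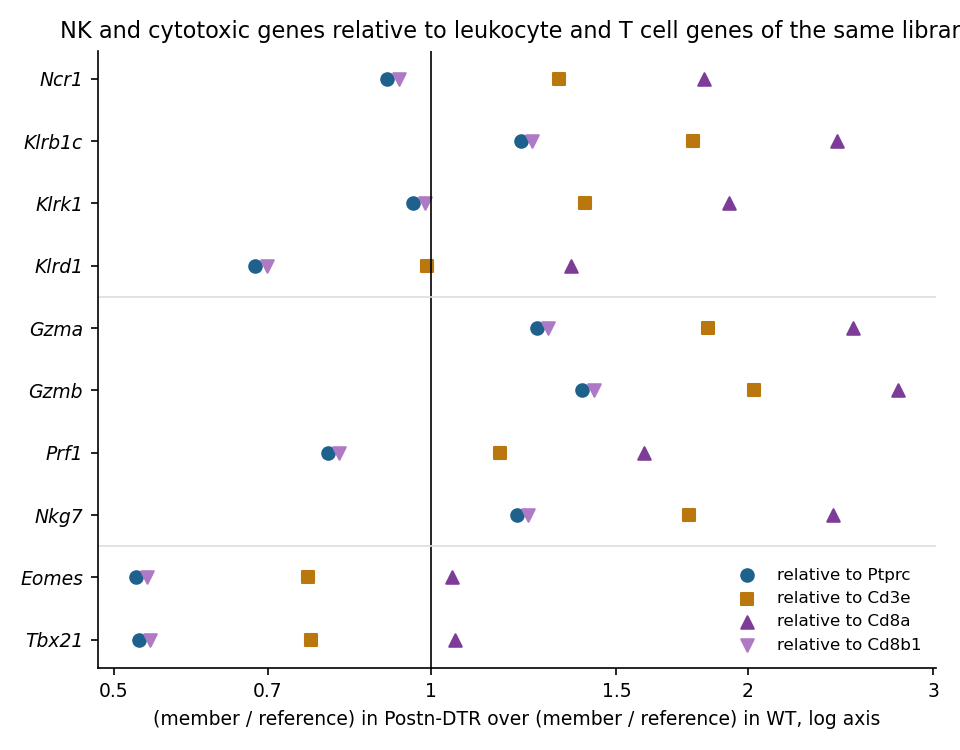
For each of the 10 genes, its FPKM over that of Ptprc, Cd3e, Cd8a or Cd8b1 in Postn-DTR, divided by the same ratio in WT, on a log axis, with 1 library per genotype. The vertical line marks an equal ratio in both. Against Cd8a all 10 points lie to the right of the line, against Ptprc and Cd8b1 they fall on both sides, and Eomes and Tbx21 lie farthest to the left for every reference.

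T cell and B cell RNA differed between the libraries together with these genes. All 7 T cell markers (Cd3d, Cd3e, Cd3g, Cd5, Cd6, Lck and Lat) were lower in Postn-DTR, 4 of them by 2-fold, with a median change of -1.08, and their summed level was 96.5 FPKM for WT and 45.1 FPKM for Postn-DTR. At equal totals all 7 were lower by 2-fold, and none was listed at 0 in either library. The B cell markers Cd79a (191 and 170 FPKM), Cd79b (137 and 96.0 FPKM), Ms4a1 (56.8 and 23.6 FPKM) and Pax5 (14.3 and 9.07 FPKM) were lower too, Ms4a1 by 2-fold. The part of these cells in the values of the 10 genes was not tested. The share of the difference in the cytotoxic genes that came with T cells rather than NK cells was not tested. Genes that mark omental tissue were present in both libraries without a common direction. Of 5 adipocyte markers, 4 were lower and 1, Fabp4, was higher (4879 and 6519 FPKM). Of 3 mesothelial markers, Lrrn4 was lower by 2-fold (62.7 and 29.2 FPKM), Upk3b was at 212 and 182 FPKM and Msln was higher (37.2 and 67.9 FPKM).

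Further receptors of NK cells formed a longer list of 29 genes, many of them of the Klr and Klra (Ly49) families, of which 17 averaged 1 FPKM or more. Of these 17, 11 were lower and 6 higher, 1 was lower by 2-fold and 0 were higher by 2-fold, and the median change was -0.19. At equal totals 15 were lower and 2 higher, with Klrg1, Klra2, Klra7 and Tigit turning from higher to lower. The gene past 2-fold on the log2(FPKM + 1) scale was Klri1, an NK lectin-like receptor, at 1.69 FPKM for WT and 0.326 FPKM for Postn-DTR. Its ratio was 0.193 (interval 0.0583 to 0.519), from only about 25 and 5 reads. By FPKM ratio, Klre1 (0.437, interval 0.271 to 0.684) and Cd226 (0.464, interval 0.121 to 1.38), named after their values were seen, were also lower by 2-fold. The 4 with the highest FPKM included 2 receptors of the SLAM family, Slamf7 (7.65 and 4.96 FPKM) and Slamf6 (6.89 and 4.39 FPKM). The others, Klra2 (5.14 and 5.90 FPKM) and the inhibitory receptor Tigit (4.17 and 5.07 FPKM), were among those whose direction turned. Reads of the Klra family can be split between near-identical copies, so its single values are uncertain.

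The adaptors that pass on receptor signals had no common direction. Of 11 compared, 4 were lower and 7 higher, with 2 past 2-fold each way and a median change of 0.21. At equal totals 6 were lower and 5 higher, with a median of -0.11, and 2 were lower and 0 higher by 2-fold. The lower pair was Cd247, the CD3 zeta chain, at 8.53 FPKM for WT and 3.72 FPKM for Postn-DTR, and Zap70, the kinase that binds it, at 8.88 and 3.85 FPKM. The higher pair was Tyrobp (DAP12), at 357 and 853 FPKM, and Fcer1g, the Fc receptor gamma chain, at 245 and 507 FPKM. Both lost this call at equal totals, with changes of 0.91 and 0.71, and Fcer1g also lost it on scaling to the 75th percentile (0.95). Hcst, whose product pairs with NKG2D, was at 19.3 FPKM for WT and 36.8 FPKM for Postn-DTR, so that the ratio of Klrk1 to Hcst was 0.290 in WT and 0.0934 in Postn-DTR. Tyrobp, Fcer1g and Hcst are also expressed by myeloid cells. The macrophage markers Adgre1, Cd68, Csf1r, Mrc1 and Itgam were all higher, 3 of 5 by 2-fold, with a summed level of 410 FPKM for WT and 1053 FPKM for Postn-DTR and none at 0, and all 5 mast cell markers were higher, or 4 of 5 at equal totals, with sums of 63.5 and 264 FPKM. Their part in the adaptor values was not tested.

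None of the 8 ligands of NK receptors compared reached 2-fold. Of these, 5 were lower and 3 higher, and the median change was -0.06. H2-T23, which encodes Qa-1, the ligand of the CD94 heterodimers, was at 194 FPKM for WT and 233 FPKM for Postn-DTR, and B2m, the light chain of MHC class I, was at 3177 and 3725 FPKM. Both were lower instead at equal totals. Clec2d, a ligand of the Klrb1 family, was at 89.0 and 88.5 FPKM, and Cd48, the ligand of 2B4, was at 54.9 and 50.6 FPKM.

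Other proteins of the cytotoxic granule gave 6 genes to compare out of 14 listed. Of these 6, 4 were lower and 2 higher, with 1 past 2-fold. That gene, also past 2-fold at equal totals, was Srgn, the proteoglycan serglycin on which granules are built in lymphocytes, mast cells and myeloid cells, at 135 FPKM for WT and 462 FPKM for Postn-DTR. Serpinb9, the inhibitor that protects cells from granzyme B, was at 16.4 and 8.69 FPKM and passed 2-fold at equal totals (-1.16), and Ctsc, the protease that activates granzymes, was at 116 and 93.2 FPKM. Gzmd, Gzme, Gzmf, Gzmg and Gzmn, named after their values were seen, were listed at 0 in both libraries, and Gzma and Gzmb were the only granzyme genes of these lists that averaged 1 FPKM or more. Of the granule exocytosis genes, 9 were compared, 4 were lower and 5 higher and none passed 2-fold. Coro1a, an actin regulator, was at 225 FPKM for WT and 130 FPKM for Postn-DTR and passed 2-fold at equal totals (-1.13), while the granule membrane gene Lamp1 was at 386 and 497 FPKM and the membrane fusion gene Vamp8 at 98.8 and 174 FPKM.

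Effector cytokines of cytotoxic lymphocytes pointed both ways. Of 7 compared, 1 was lower and 3 were higher by 2-fold, and at equal totals 2 were lower and 1 was higher. The lower gene was Lta, lymphotoxin alpha, at 5.74 FPKM for WT and 1.72 FPKM for Postn-DTR. The higher genes were the chemokines Ccl3 (1.75 and 15.5 FPKM), Ccl4 (1.59 and 4.62 FPKM) and Ccl5 (102 and 207 FPKM). Ccl3 and Ccl4 are also made by macrophages, and the cells behind the values of all 3, Ccl5 included, were not tested. Ccl4 (0.87) and Ccl5 (0.67) were under 2-fold at equal totals, and Ccl5 also on scaling to the 75th percentile (0.91). Xcl1, a chemokine of NK and CD8 T cells, was at 7.86 and 4.42 FPKM and just reached 2-fold at equal totals, and Tnfsf10, the death ligand TRAIL, at 4.80 and 2.90 FPKM. Ifng, named after its value was seen, was too low to compare, at 0.598 and 0.330 FPKM, with a ratio interval of 0.203 to 1.42. Of 7 genes that respond to interferon-gamma, 6 were lower and 1 higher, with a median change of -0.49. Ciita, the activator of MHC class II, was at 15.6 and 3.75 FPKM and Cxcl9, a ligand of Cxcr3, at 7.60 and 3.22 FPKM, and both were lower by 2-fold. At equal totals all 7 were lower, as were most of all genes compared. Which cells these RNAs came from, and whether interferon-gamma signalling differed, was not tested.

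Of 14 further transcription factors of these cells, 8 were lower and 6 higher, with a median change of -0.30. None was lower by 2-fold on the log2(FPKM + 1) scale, although Ets1, a factor of NK and T cell development, came near it (-0.97). Ets1 was at 35.4 FPKM for WT and 17.6 FPKM for Postn-DTR, an FPKM ratio of 0.498. Ets1 passed 2-fold at equal totals (-1.30) and at the 75th percentile (-1.07). Tcf7, named after its value was seen, had an FPKM ratio of 0.492 and a change of -0.94, and passed 2-fold at equal totals. Nfil3, which is needed for NK cell development, was higher by 2-fold, at 12.9 and 41.6 FPKM, as was Bhlhe40, at 21.1 and 47.1 FPKM, which was under 2-fold at equal totals (0.79). Id2, the inhibitor of E proteins in innate lymphocytes, was at 56.7 and 98.1 FPKM. Nfil3, Bhlhe40 and Id2 are expressed by many cell types besides lymphocytes.

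The receptors for the cytokines that sustain NK cells were lower in 5 of 7 cases, with a median change of -0.51. On the log2(FPKM + 1) scale none was past 2-fold without rescaling, and at equal totals 2 were lower by 2-fold, Il2rb (-1.03) and Il12rb1. Il12rb1, named after its value was seen, was at 3.49 FPKM for WT and 1.62 FPKM for Postn-DTR. Its FPKM ratio of 0.463 (0.253 to 0.788) was already past 2-fold before rescaling. Il2rb, the shared beta chain for IL-2 and IL-15, was at 19.0 FPKM for WT and 11.3 FPKM for Postn-DTR, and Il2rg, the common gamma chain, at 94.6 and 67.0 FPKM. Il15ra, with which other cells present IL-15, was at 16.8 and 32.5 FPKM. The 3 cytokines compared had a median change of 0.05, with Il15 at 5.04 and 5.25 FPKM and Il18 at 15.8 and 15.0 FPKM, and Il15 was lower instead at equal totals. Of 10 trafficking receptors, 3 were lower by 2-fold: Cxcr3 (12.8 and 5.43 FPKM), Cx3cr1 (16.7 and 4.92 FPKM) and Ccr7 (8.45 and 3.18 FPKM), of which Cx3cr1 is also a gene of monocytes and macrophages. S1pr5, a receptor by which mature NK cells leave lymphoid tissue, was higher by 2-fold, at 0.580 FPKM for WT and 3.46 FPKM for Postn-DTR. It rests on about 31 and 191 reads and averaged above 1 FPKM only through Postn-DTR. The cells that the S1pr5 RNA came from were not tested. At equal totals 5 trafficking receptors were lower by 2-fold, these 3 with Itgal and Cxcr6, and S1pr5 was still higher by 2-fold. Cxcr6, named after its value was seen, was at 10.1 FPKM for WT and 4.76 FPKM for Postn-DTR. Its FPKM ratio of 0.471 was past 2-fold before rescaling, but its change on the log2(FPKM + 1) scale, -0.95, was not.

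**Figure D5:**
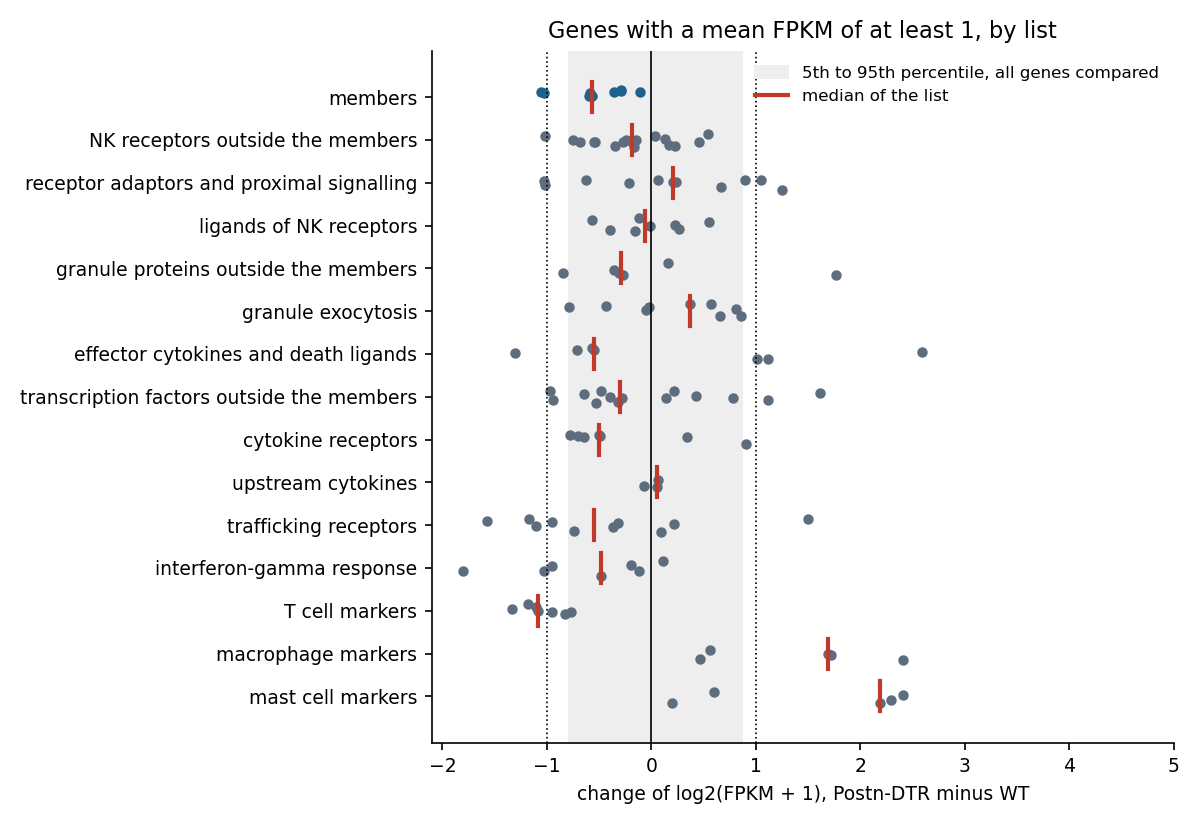
Change in log2(FPKM + 1) from WT to Postn-DTR for the genes of each list that averaged 1 FPKM or more (points, spread vertically for sight), with the median of each list in red and the 5th to 95th percentile of all genes compared in grey. Dotted lines mark 2-fold. The top line of points is the NK and cytotoxic genes, all left of 0 with a median of -0.57, while the adaptors (0.21) and granule exocytosis genes (0.37) have medians right of 0.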

How the data were processed

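Whole omentum RNA was sequenced in 2 libraries, 1 per genotype. Per the labels, total RNA was purified with a miRNeasy kit and made into stranded TruSeq mRNA libraries. The authors deposited FPKM per gene symbol. The submitters' processing notes name TopHat2 2.1.1, Bowtie2 2.2.8, SAMtools 0.1.18, Cuffdiff 2.2.1 and mm10. The annotation and the strand setting are not given in the sources used here. Positions came from GENCODE release M21 (GRCm38), not necessarily the authors' annotation.

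Changes were taken on log2(FPKM + 1) as Postn-DTR less WT for genes that averaged 1 FPKM or more. Low genes therefore show less than their full fold, and some with an FPKM ratio under 0.5 are not counted as lower by 2-fold. Reads were estimated from FPKM steps in single-transcript genes, which gave scaling totals of 23400000 fragments for WT and 24000000 for Postn-DTR, and effective lengths 203 bases under the transcript length. Of low values, 76.5% and 77.1% came out whole within 0.1 reads. Intervals are exact 95% binomial (Clopper-Pearson) intervals of the ratio, on the fewest reads that the shortest coding transcript allows. Python 3.11.15, pandas 2.3.3, numpy 2.4.6 and scipy 1.17.1 were used, and the scripts were tested on simulated data.

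The members and gene lists were chosen with earlier results of these data known. The text names genes by a rule: all members and, in the 11 lists of related genes, those past 2-fold and otherwise up to 4 of the highest FPKM. Markers of other cell types were described by counts and summed levels, and a few were named after their values were seen. Motif matches are descriptions of letters. No test between genotypes was possible, and the alternatives were other pseudocounts, filters, scalings and fold thresholds.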

Additional observations from a re-analysis of the deposited data

How the results depend on the processing

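All 10 members were lower under each of the 3 other scalings, 30 of 30 values. At equal totals the median change of all genes compared was also under 0, at -0.28. Pseudocounts and filters cannot turn the direction of a gene. The change of Gzmb ranged from -0.32 to -0.04, and that of Tbx21 from -1.49 to -0.47. The count of members lower by 2-fold was 2 as reported, 0 with a pseudocount of 5, 1 with a mean FPKM of at least 5 (3 members compared), 4 at 1.5-fold and 0 at 3-fold. Over all genes, 410 were lower as reported, 643 with a pseudocount of 0.1, 168 with 5, 249 with a mean of at least 5, 785 once totals were equal, 1160 at 1.5-fold and 153 at 3-fold. Those higher were 509, 287 with a pseudocount of 5, 307 once totals were equal, 1294 at 1.5-fold and 199 at 3-fold.

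Of the list medians, a pseudocount of 5 moved adaptors to 0.0842 and mast cell markers to 1.87. Without a filter, ligands had 0.0882 and upstream cytokines -0.0681. With a mean of at least 5, effector cytokines had 1.01 and trafficking receptors -0.84. Scaling to the 75th percentile gave -0.0373 for upstream cytokines and 1.59 for macrophage markers. At equal totals the medians were -0.11 for adaptors, -0.34 for ligands, -0.60 for granule proteins, 0.0236 for exocytosis, -0.83 for cytokine receptors, -0.24 for upstream cytokines, -0.86 for trafficking receptors, -0.81 for interferon-gamma response, 1.35 for macrophage markers and 1.86 for mast cell markers. The cause of these shifts was not tested beyond the settings themselves.

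No paired analysis was possible because each genotype has 1 library, and neither was left out. Depth limits the low members, with Eomes at as few as 15 reads in Postn-DTR.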
